A study of Mus musculus with 31 samples.

Results

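Microglia, the resident macrophages of the brain, and the genes of antigen presentation were followed through 10 genes in chromatin immunoprecipitation libraries from mouse hippocampus. The genes were Cx3cr1, Csf1r, Tmem119, P2ry12, Aif1, Trem2, C1qa, Fcgr3, H2-DMa and B2m, out of 21887 protein-coding genes in the RefSeq annotation. They form a named list that was drawn up with results of these data in view. The values behind the choice were the presence, width and fold enrichment of peaks of trimethylated histone H3 lysine 4 (H3K4me3) within 2 kb of either end of the gene, and the authors' scores at regions of their H3K4me3 differential lists that lay there. Those H3K4me3 values are therefore given as a description, with no test. Peaks of the monomethylated form (H3K4me1) were not used in the choice and were tested.

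All mice were C57BL6, 30 days old, and either wild type (KMT2D+/+) or heterozygous (KMT2D+/bGeo), with a bGeo insertion in 1 copy of Kmt2d, the gene mutated in most people with Kabuki syndrome. Dosing began at 2 weeks of age and lasted 2 weeks: mice received either TAK-418, which inhibits the H3K4 demethylase LSD1, by gavage in methylcellulose at a daily 1 mg/kg, or methylcellulose alone. Each of the 4 groups had 4 H3K4me3 and 4 H3K4me1 libraries, 1 of each per mouse, except that wild type TAK-418 had 3 H3K4me1 libraries. Libraries are called by group and by a number that follows the order of deposit and pairs nothing between groups. The sex of the mice was not given in the sources used here, and Y chromosome peaks were present in 1 of 4 wild types and 2 of 4 KMT2D+/bGeo mice on vehicle, and in 2 of 4 wild types and 3 of 4 KMT2D+/bGeo mice on TAK-418.

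Microglia survive on signalling through Csf1r and sense their surroundings through receptors such as Cx3cr1, P2ry12 and Trem2. Antigen presentation runs along separate class I and class II routes: B2m is the light chain of class I molecules on nearly all nucleated cells, and H2-DMa helps to load peptides onto class II molecules in professional antigen-presenting cells. H3K4me3 gathers at promoters of active genes and of many genes rich in CG dinucleotides, while H3K4me1 gathers at enhancers and beside promoters. Kmt2d encodes a methyltransferase of H3K4. The tissue was whole hippocampus, in which neurons and macroglia outnumber microglia, so fewer cells of a type and less of a mark per cell cannot be told apart.

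The promoters of these genes differed in sequence before any measurement, and 5 are printed here because the peaks fell on some of them and not on others. Each line gives the 250 bases before an annotated start in RefSeq (GRCm38.p6, the assembly also called mm10), 5′ to 3′ on the strand of the gene. Capitals mark CG dinucleotides and matches to either of a pair of motifs described after the sequences. Windows for 7 of the 10 genes were matched. H2-DMa is shown with its first start (chr17:34122582-34122831, plus strand), B2m with chr2:122147437-122147686 (plus strand), Fcgr3 with its first window (chr1:171059404-171059653, minus strand), P2ry12 with chr3:59262986-59263235 (minus strand) and Aif1 with chr17:35176053-35176302 (minus strand).
H2-DMa: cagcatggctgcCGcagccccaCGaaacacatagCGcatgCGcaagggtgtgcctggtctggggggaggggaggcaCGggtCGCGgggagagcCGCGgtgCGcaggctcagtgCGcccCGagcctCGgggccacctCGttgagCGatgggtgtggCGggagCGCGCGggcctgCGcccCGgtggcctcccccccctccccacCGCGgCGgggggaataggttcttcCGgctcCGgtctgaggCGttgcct
B2m: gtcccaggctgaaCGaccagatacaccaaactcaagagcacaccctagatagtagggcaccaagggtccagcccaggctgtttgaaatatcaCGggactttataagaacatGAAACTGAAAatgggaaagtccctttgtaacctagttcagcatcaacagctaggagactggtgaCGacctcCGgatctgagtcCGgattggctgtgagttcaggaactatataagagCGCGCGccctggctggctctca
Fcgr3: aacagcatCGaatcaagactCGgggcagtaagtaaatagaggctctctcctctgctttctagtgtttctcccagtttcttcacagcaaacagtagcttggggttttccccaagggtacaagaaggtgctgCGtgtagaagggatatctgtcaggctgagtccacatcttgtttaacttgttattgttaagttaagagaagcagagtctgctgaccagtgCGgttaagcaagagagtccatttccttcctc
P2ry12: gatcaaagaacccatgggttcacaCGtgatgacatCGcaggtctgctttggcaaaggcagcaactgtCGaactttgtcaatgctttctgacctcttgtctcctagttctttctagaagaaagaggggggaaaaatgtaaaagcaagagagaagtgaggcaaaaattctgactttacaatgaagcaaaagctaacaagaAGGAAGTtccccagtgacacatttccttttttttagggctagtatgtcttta
Aif1: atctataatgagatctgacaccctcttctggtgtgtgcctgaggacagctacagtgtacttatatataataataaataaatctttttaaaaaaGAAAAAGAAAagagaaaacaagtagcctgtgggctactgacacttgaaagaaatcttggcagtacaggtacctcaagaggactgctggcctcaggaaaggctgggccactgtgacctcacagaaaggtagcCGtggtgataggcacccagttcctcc

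The H2-DMa window held 27 CG dinucleotides and the B2m window 8, against a median of 10 over 21263 promoter windows. The windows of the microglial genes held few: 4 in Cx3cr1, 3 in P2ry12, 1 in Aif1, 4 in Trem2 and 4 and 3 in the pair of overlapping Fcgr3 windows. A second, downstream start of H2-DMa had 0. The letters GAAA, any 2 bases and GAAA again, the core of the interferon-stimulated response element, were found on the plus strand of the window in B2m, from 139 to 130 bases before the start, and in Aif1, from 157 to 148 bases before it. Both strands were searched, the motifs do not overlap in these windows, and 2.96% of all windows hold this one. The letters AGGAAGT, a core bound by ETS factors such as the myeloid factor PU.1, were found in P2ry12 from 52 to 46 bases before the start, and 7.32% of windows hold it. A match is a description of the letters and not a binding site.

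Peak lists were of 2 kinds. In each group 1 H3K4me3 library had a long list, of 13343 to 16750 peaks. The other 12 H3K4me3 lists had 302 to 2281 peaks and the 15 H3K4me1 lists 88 to 456. The long lists came from KMT2D+/bGeo vehicle library 2 and from library 3 of each of the other groups, the same 4 H3K4me3 libraries whose index sequences belong to the 2 sets that all H3K4me1 libraries carry. The other 12 carry indexes of 2 other sets, as read from the index sequences in the labels, so list length and index set cannot be told apart. The long lists had a peak at an end of 55.1% (wild type vehicle), 56.2% (KMT2D+/bGeo vehicle), 60.1% (wild type TAK-418) and 58.8% (KMT2D+/bGeo TAK-418) of protein-coding genes. In the short H3K4me3 lists the share ran from 0.224% to 8.93%. The deposited peak lists give no read counts, so the depth behind a peak, or behind its absence, is unknown.

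An H3K4me3 peak lay at an end of 5 of the 10 genes in at least 1 of the 16 libraries (63.2% of all protein-coding genes), and of 3 genes, Fcgr3, H2-DMa and B2m, in all 4 long lists (51.4%). The long lists marked 3 or 4 of the 10 genes, 30% to 40%, below the 55.1% to 60.1% of all protein-coding genes. The short lists marked at most 2. Cx3cr1, P2ry12, Aif1, Trem2 and C1qa had no peak at an end in any library.

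**Figure D1:**
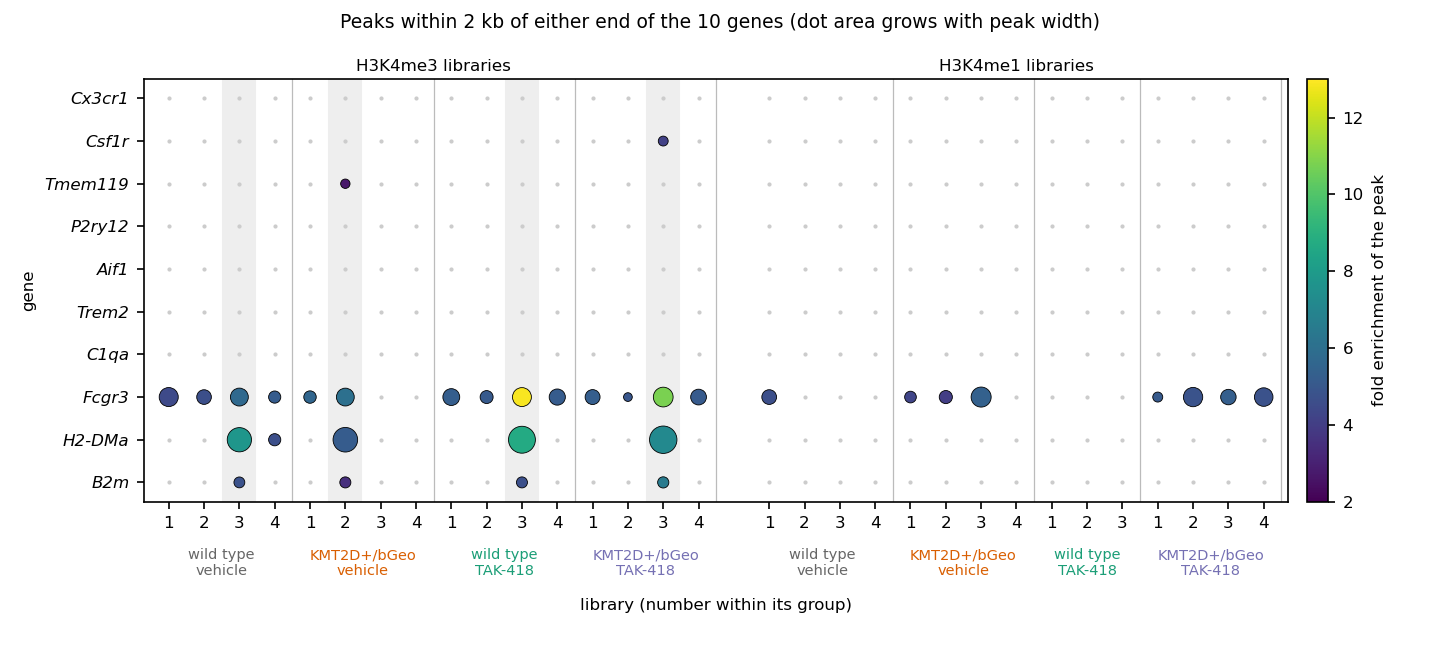
Each row is 1 of the 10 genes and each column 1 library, numbered within its group, with H3K4me3 on the left and H3K4me1 on the right. Dots mark a peak within 2 kb of a gene end, coloured by the authors' fold enrichment and with an area that grows with peak width, and grey columns are the 4 long lists: Fcgr3 is marked in 14 of 16 H3K4me3 and 8 of 15 H3K4me1 libraries, H2-DMa and B2m in the grey columns, with H2-DMa also in wild type vehicle library 4.

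The receptors of homeostatic microglia had few called peaks, and with depth unknown a missing peak does not show that the mark was absent. Cx3cr1, the receptor for the neuronal chemokine fractalkine, had its nearest peak 36995 to 42056 bp from an end in 3 of the long lists. In the KMT2D+/bGeo vehicle long list a weak peak lay inside the gene, 463 bp wide at 2.70-fold and 3034 bp from the nearer end. P2ry12, an ADP receptor that guides microglial processes to injury, had its nearest peak 80956 to 81295 bp away in 3 long lists, and in the KMT2D+/bGeo vehicle list a peak of 315 bp at 2.70-fold inside the gene, 7224 bp from an end. The same library thus held the only peaks within either gene.

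Csf1r, the receptor for CSF1 and IL-34, was marked in 1 library, KMT2D+/bGeo TAK-418 library 3, by a peak 422 bp wide at 4.12-fold, 636 bp inside its lower end. Peaks at gene ends in that library were mostly higher and wider, and this one stood at percentile 7.54 of fold and 6.09 of width. Tmem119, a transmembrane protein used to tell microglia from other macrophages, had a peak in KMT2D+/bGeo vehicle library 2 only, 331 bp wide at 2.71-fold and 1130 bp from its lower end. In the KMT2D+/bGeo TAK-418 long list the peak nearest to Tmem119 was 2842 bp away, just outside the 2 kb limit. Both genes were thus marked in 1 of 4 long lists, by peaks near the bottom of their library.

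Aif1, which encodes the microglial protein Iba1, had no peak closer than 5413 to 6030 bp to an end in the long lists, and none closer than 10191 to 11096 bp to its annotated start. Trem2, a receptor for lipids and for apoptotic cells, had its nearest peak 3887 bp from the end opposite its start in the wild type TAK-418 long list and 56314 to 56656 bp away in the others. C1qa, a chain of the complement component that opens the classical pathway, had a nearest peak 5466 bp away in the KMT2D+/bGeo vehicle long list and 35620 to 57692 bp away in the other long lists. None of these 3 genes had a peak within its body in any library.

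B2m had a peak at its own start in all 4 long lists and in no short list. The fold enrichment was 4.79 in wild type vehicle library 3, 3.47 in KMT2D+/bGeo vehicle library 2, 4.67 in wild type TAK-418 library 3 and 6.53 in KMT2D+/bGeo TAK-418 library 3. The peaks were narrow, 608, 647, 639 and 676 bp in the same order, and lay 0 to 36 bp from the start. Among peaks at gene ends of the same library their widths stood at percentiles 18.3 to 26.3. With 1 long list per group, these values have no replicate within a group.

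At H2-DMa the peak was one of the widest in each long list. It was 4939 bp wide at 7.78-fold in wild type vehicle library 3, 5088 bp at 5.16-fold in KMT2D+/bGeo vehicle library 2, 6194 bp at 8.70-fold in wild type TAK-418 library 3 and 6445 bp at 7.16-fold in KMT2D+/bGeo TAK-418 library 3, at the 99.8th to 99.9th percentile of width. This peak was shared with a neighbour. The first H2-DMa start matched to a promoter window, at 34122832 on the plus strand, lies 225 bp from a start of Brd2. That Brd2 start is at 34122607 on the minus strand, and Brd2 has further starts at 34121747 and 34119900. The annotated H2-DMa gene itself begins earlier, at 34119693, where no promoter window was matched. Brd2 encodes a bromodomain protein that reads acetylated histones in most cell types. All 4 wide peaks covered promoter windows of both genes and extended mainly to the side of the Brd2 starts, which the annotated H2-DMa gene also spans. In the only short list with a peak there, wild type vehicle library 4, the peak was 887 bp wide at 4.65-fold. Of the promoter windows it lay over that of Brd2 alone, 383 bp from the first matched H2-DMa start. Which of the genes a peak belongs to cannot be told from these lists. Inside the H2-DMa gene, both TAK-418 long lists also held a small peak, of 444 bp at 4.42-fold in wild type and 539 bp at 3.70-fold in KMT2D+/bGeo, 3067 and 3163 bp from the gene's upper end.

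The mark recorded at Fcgr3 did not lie on either of the overlapping promoter windows matched to it. Fcgr3 encodes a low-affinity receptor for the constant part of IgG, carried by microglia and other myeloid cells. It is read from the minus strand, and its matched starts lie 6512 and 6521 bp inside the upper end of the gene. On that strand the upper end (171065915) is the 5′ end of the annotated gene. No promoter window was matched to that end, and whether a transcript starts there was not tested. In the long lists the peak reached from 171063719 to 171066827 at most on chromosome 1, around that upper end. It stopped 4316 to 4369 bp short of the nearest matched start. What it did cover was a row of 5 tRNA genes, n-TEctc5, n-TGtcc1, n-TDgtc3, n-TLcag6 and n-TGgcc12, and the microRNA gene Mir6546. These tRNA genes start at -1751 to 716 bp from the upper end, and a peak of either mark covered up to 5 of them. Peaks overlapped n-TDgtc3 in 13 and Mir6546 in 12 of the 16 H3K4me3 libraries.

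The mature products of Mir6546 are printed from RefSeq because this gene and its tRNA neighbours lay under the peak, and the matched Fcgr3 starts did not. Capitals are the seed, bases 2 to 8.
mmu-miR-6546-5p: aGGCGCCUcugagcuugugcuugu
mmu-miR-6546-3p: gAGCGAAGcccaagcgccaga

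A further row of 5 tRNA genes with the same anticodons in the same order, from n-TEctc8 to n-TGgcc13, lies 5877 to 8387 bp above the upper end. Within 100 kb of that end there were 25 tRNA genes. Of the further row, n-TDgtc7 was overlapped by peaks in 10 H3K4me3 libraries and n-TGtcc5 in 9, and at most 1 H3K4me1 library had a peak over any of its genes. Reads from such copies can map to several places, and the sources used here do not say how the authors treated those, so the values at the upper end of Fcgr3 are uncertain. Of 430 tRNA genes, 15.1% to 26.3% overlapped a peak in the long lists.

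**Figure D2:**
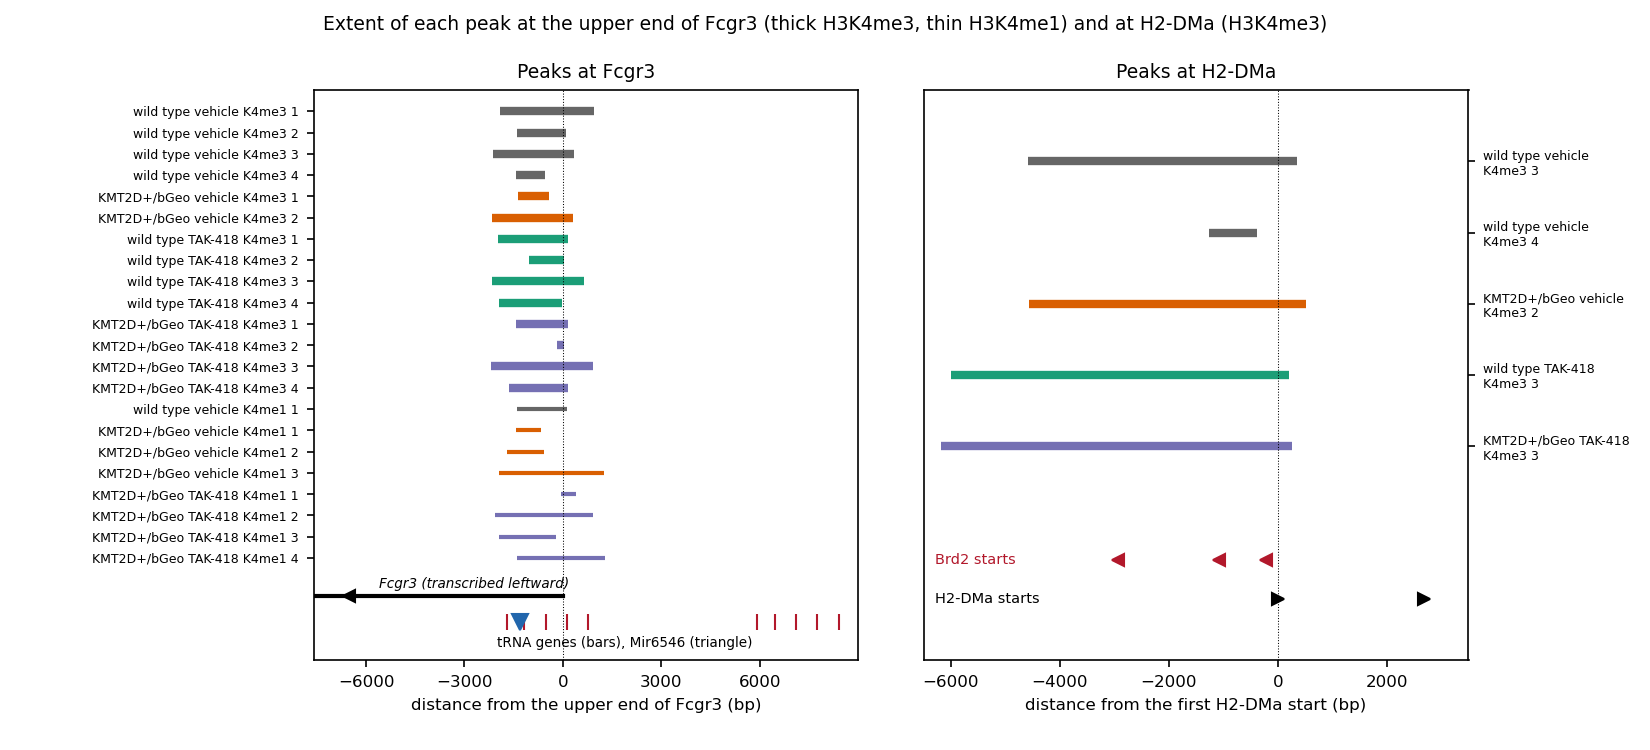
Horizontal bars show the extent of each peak, by library, against the distance in bp from the upper end of Fcgr3 (left, thick bars H3K4me3 and thin bars H3K4me1) or from the first H2-DMa start (right, H3K4me3). On the left the peaks gather over the tRNA row and stay short of the nearer matched Fcgr3 start (black arrowhead, 6512 bp away). On the right the wide peaks run from the first matched H2-DMa start across all 3 Brd2 starts.

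The fold enrichment at Fcgr3 was 4.48, 4.63, 5.71 and 5.15 in wild type vehicle libraries 1 to 4, and 5.57 and 6.02 in KMT2D+/bGeo vehicle libraries 1 and 2. KMT2D+/bGeo vehicle libraries 3 and 4 had no peak there. The fold was 5.26, 5.06, 12.9 and 5.17 in wild type TAK-418 libraries 1 to 4, and 5.24, 4.93, 10.8 and 5.10 in the same libraries of KMT2D+/bGeo TAK-418. The high values were those of the long lists of both TAK-418 groups, where this peak stood at the 99.9th (wild type) and 99.8th (KMT2D+/bGeo) percentile of fold among peaks at gene ends. In the long lists of both vehicle groups it stood at percentile 57.1 (wild type) and 91.3 (KMT2D+/bGeo). Outside the long lists the treated and untreated libraries overlapped, at 4.93 to 5.26 and 4.48 to 5.57.

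The Fcgr3 region also carried H3K4me1, the only one of the 10 genes to do so. Of all protein-coding genes 0.507% had an H3K4me1 peak at an end in any library, and 0.0731% to 0.297% within each. Of the 4 libraries of KMT2D+/bGeo mice on vehicle 3 had a peak at Fcgr3, as did 4 of 4 on TAK-418, whereas 1 of 4 libraries of wild types on vehicle and 0 of 3 on TAK-418 had one. The fold was 4.65 in the wild type vehicle library, 4.27, 3.98 and 5.36 in the KMT2D+/bGeo vehicle libraries and 5.07, 4.82, 5.29 and 4.76 in the KMT2D+/bGeo TAK-418 libraries. The mark was thus seen in 7 of 8 libraries of heterozygotes and 1 of 7 of wild types, a pooled count made after the values were seen and not tested. In two-sided exact permutation tests over libraries, none of the 4 comparisons passed: KMT2D+/bGeo vehicle against wild type vehicle gave p = 0.486 (0.971 adjusted by Benjamini-Hochberg over 4 comparisons), KMT2D+/bGeo TAK-418 against wild type vehicle p = 0.143 (0.571), and each of the other comparisons p = 1 (1). With 4 libraries against 4 the smallest p possible is 0.0286. It needs a peak in every library of 1 group and in none of the other. Each library scored 0 or 1 here, since only Fcgr3 had peaks, so the number of libraries with a peak limits p. KMT2D+/bGeo TAK-418 against wild type vehicle already had its most uneven split, so 0.143 was its smallest possible p. Only KMT2D+/bGeo against wild type on vehicle could have reached an unadjusted p under 0.05. After adjustment over 4 comparisons even the smallest possible p would not have passed, so none of these tests decides anything. The number of H3K4me1 peaks ranged from 88 to 400 per list in wild type vehicle from 227 to 449 in KMT2D+/bGeo vehicle, from 251 to 402 in KMT2D+/bGeo TAK-418 and from 236 to 456 in wild type TAK-418, the group with no peak at Fcgr3.

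Places with both marks called in many libraries were counted over the merged peaks of all libraries. The H3K4me1 lists held only 88 to 456 peaks each, so few regions could be covered often for that mark. A small share is thus set largely by list length. Of 23502 merged regions with a peak in any library, 138 (0.587%) were covered in 8 or more libraries for H3K4me3 and also for H3K4me1, and the Fcgr3 region was among them. Of those 138 regions, 2 overlapped a tRNA gene.

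The authors' differential lists, which hold regions chosen by the authors' own p for the difference, give 1 score per library. The scores are whole numbers in the authors' normalized unit and name no library, so they are given here in the order of the file. In the H3K4me3 lists 1 position of each group was most often the highest: the third in wild type vehicle (58.4% to 65.5% of regions, by list), wild type TAK-418 (77.0%) and KMT2D+/bGeo TAK-418 (52.6% to 75.9%), and the second in KMT2D+/bGeo vehicle (46.6% to 64.8%). In the H3K4me1 lists it was the first in wild type vehicle (70.3% to 72.1%) and KMT2D+/bGeo vehicle (53.4% to 60.3%), and the second in KMT2D+/bGeo TAK-418 (41.3% to 47.4%) and wild type TAK-418 (51.7%). Ratios at Fcgr3 and H2-DMa are also given without such a score. Scores were compared only within a list. Fcgr3 and H2-DMa had regions in these lists, and the other 8 genes, B2m included, had none.

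In KMT2D+/bGeo against wild type mice on vehicle, 1 of the 10 genes, Fcgr3, had a listed H3K4me3 region at an end, against 7.21% of protein-coding genes. The mean ratios of its regions lay on opposite sides of 1 along the tRNA row, in a list where 14% of regions had a higher mean in KMT2D+/bGeo mice. At 171063851 to 171064400, over n-TEctc5, the scores were 93, 69, 72 and 56 in wild type and 127, 142, 169 and 49 in KMT2D+/bGeo mice, 72.5 ± 15.3 against 122 ± 51.5 (SD, n = 4 each), a ratio of 1.68. At 171065601 to 171066150, over n-TLcag6, they were 144, 176, 72 and 105 in wild type and 76, 39, 84 and 95 in KMT2D+/bGeo mice, 124 ± 45.3 against 73.5 ± 24.3, a ratio of 0.592. In both regions the groups overlapped, as they did in all but 2.03% of the list. Without the third wild type score the ratios were 1.68 and 0.519, and without the second KMT2D+/bGeo score 1.59 and 0.684. The median ratio over all 2015 regions of the list was 0.642.

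In KMT2D+/bGeo mice on TAK-418 against vehicle, Fcgr3 and H2-DMa had listed H3K4me3 regions, 2 of 10 genes against 4.2% of protein-coding genes, and all 3 regions had higher means on TAK-418, as had 68.5% of the list. At 171064301 to 171065100 of Fcgr3 the scores were 337, 262, 205 and 126 on vehicle and 275, 183, 543 and 311 on TAK-418, a ratio of 1.41. At 171065401 to 171066200 they were 157, 115, 121 and 186 on vehicle and 154, 178, 346 and 274 on TAK-418, a ratio of 1.64. At 34118351 to 34119150, on the Brd2 side of H2-DMa, they were 53, 150, 71 and 84 on vehicle and 74, 96, 315 and 161 on TAK-418, a ratio of 1.80. The groups overlapped in each, and they failed to overlap in 0.35% of the list. Without the third TAK-418 score the ratios were 1.10, 1.40 and 1.23, and without the second vehicle score 1.47, 1.54 and 2.33. The median of the list of 1715 regions was 1.39.

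In wild type mice on TAK-418 against vehicle the same pair of genes was listed, against 9.98% of protein-coding genes, and Fcgr3 gave the one region of the 12 H3K4me3 regions whose groups did not overlap. At 171063901 to 171066100, across 4 of the tRNA genes, the scores were 666, 639, 558 and 634 on vehicle and 879, 766, 1225 and 806 on TAK-418. The lowest treated score, 766, was above the highest vehicle score, 666, and the means were 624 ± 46.3 and 919 ± 209 (SD, n = 4 each), a ratio of 1.47 that was 1.31 without the third TAK-418 score and 1.42 without the third vehicle score. Groups failed to overlap, in either direction, in 0.54% of the 2780 regions of this list, 63.6% had a higher mean on TAK-418, and this region ranked 36 by the p in the authors' deposited table. Since the region was chosen with these values known, no test is given.

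The regions at H2-DMa in this comparison lay over Brd2 and also inside the annotated span of H2-DMa. At 34120151 to 34121000 the scores were 75, 108, 433 and 163 on vehicle and 91, 92, 274 and 119 on TAK-418, a ratio of 0.739. Without the third vehicle score, 433, the ratio turned to 1.25, and without the third TAK-418 score it was 0.517. At 34121551 to 34121900 they were 59, 41, 136 and 109 on vehicle and 6, 19, 150 and 49 on TAK-418, a ratio of 0.649, or 0.286 without the third TAK-418 score and 0.804 without the third vehicle score. Here too the groups overlapped, and the third score was the highest of each group in both regions.

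In KMT2D+/bGeo mice on TAK-418 against wild type mice on vehicle, both genes were listed again, against 9.73% of protein-coding genes. This comparison shares its vehicle libraries with others above. At 171063851 to 171065100 of Fcgr3 the scores were 330, 290, 324 and 353 in wild type and 372, 281, 756 and 431 in treated KMT2D+/bGeo mice, a ratio of 1.42, or 1.11 without the third treated and 1.42 without the third wild type score. At 171065301 to 171066100 they were 264, 283, 134 and 208 against 164, 202, 394 and 305, a ratio of 1.20, or 1.01 and 1.06 without these scores. At H2-DMa the outer region, 34118351 to 34119050, had 71, 34, 295 and 72 against 60, 101, 290 and 161, a ratio of 1.30 that turned to 0.910 without the third treated score and was 2.59 without the third wild type score. The region 34120151 to 34121900 covered the Brd2 start at 34121747 and no other. Its scores were 211, 235, 772 and 321 in wild type and 73, 54, 537 and 148 in treated KMT2D+/bGeo mice, a ratio of 0.528. It was 0.238 without the third treated score and 0.794 without the third wild type score, so its size rests on single libraries. All 4 regions overlapped between groups, a failure to overlap being seen in 0.404% of the list, and 27.6% of its regions had a higher mean in the treated KMT2D+/bGeo mice.

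**Figure D3:**
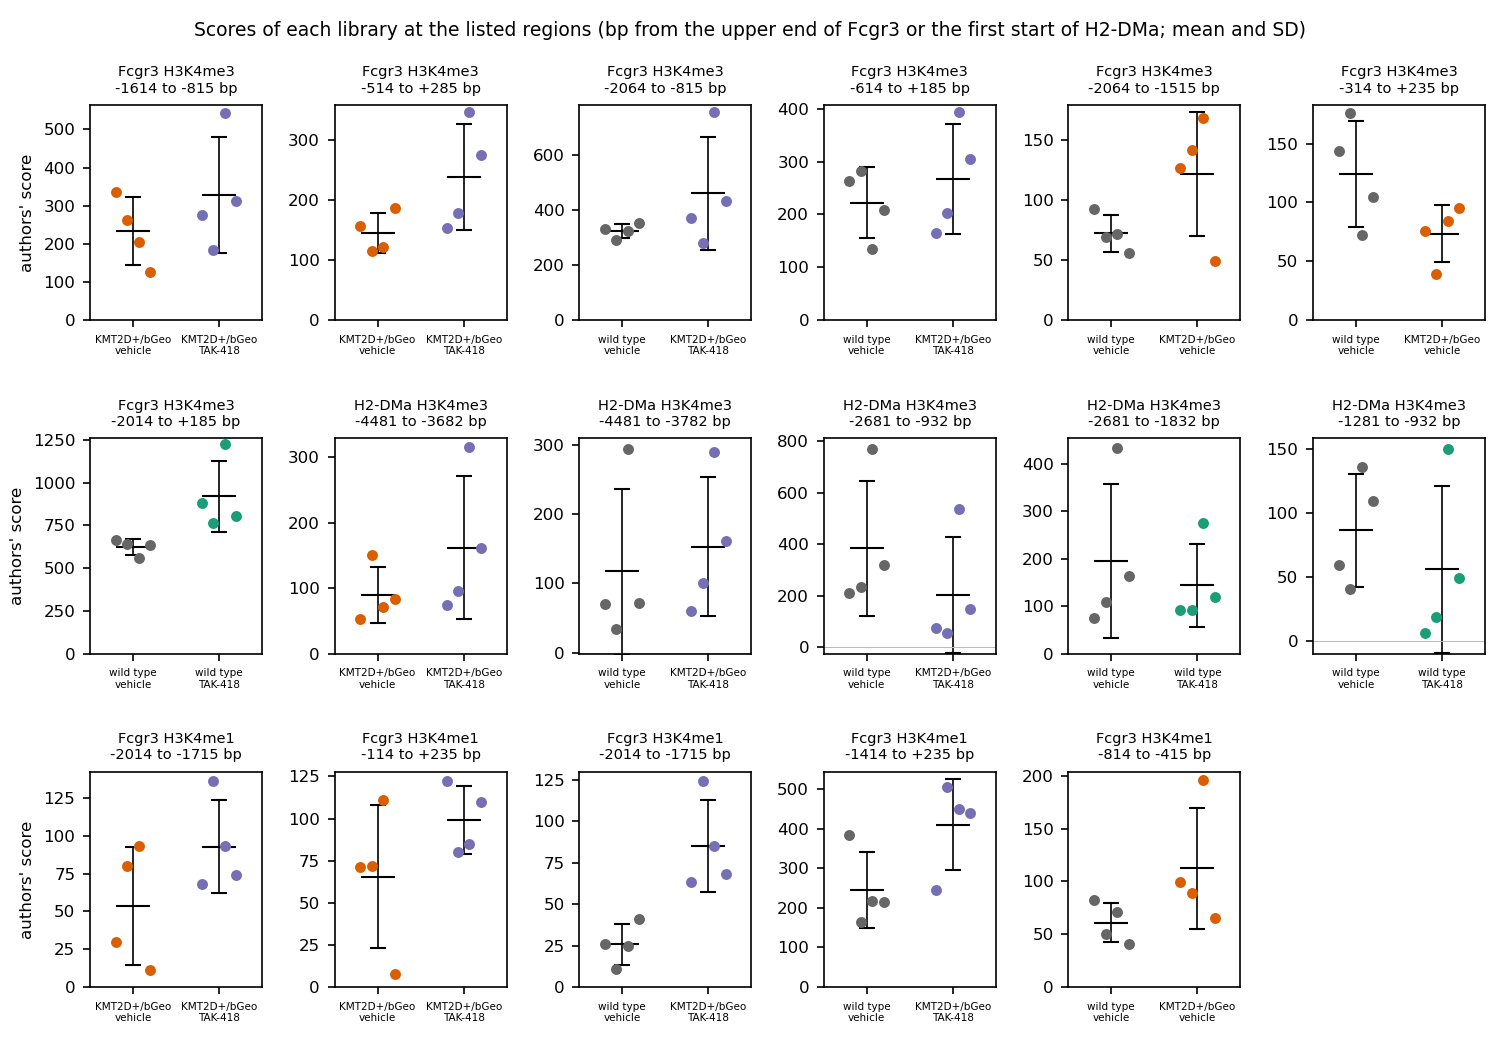
Each panel is 1 listed region, named by its distance in bp from the upper end of Fcgr3 or the first start of H2-DMa, with the authors' score of every library (dots, in file order), the mean and the SD. The groups are apart in 2 of 17 panels: the H3K4me3 panel of Fcgr3 in wild type TAK-418 (766 to 1225) against vehicle (558 to 666), and the H3K4me1 panel in KMT2D+/bGeo TAK-418 (63 to 124) against wild type vehicle (11 to 41).

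Over whole H3K4me3 lists, limma on log2(score + 1) with Benjamini-Hochberg adjustment called 0 of 2015 regions between genotypes on vehicle (82 at an unadjusted p under 0.05), 0 of 1715 in KMT2D+/bGeo on TAK-418 against vehicle (17) and 0 of 2780 in wild type on TAK-418 against vehicle (66). It called 8 of 2722 in KMT2D+/bGeo TAK-418 against wild type vehicle, 0.294%, all higher in the treated KMT2D+/bGeo mice. Fitted again to the 2679 regions on autosomes and X alone, it called 0. The mice with Y peaks numbered 3 of 4 and 1 of 4 in these groups. Leaving out single scores gave 0 to 11 calls, with 0 without the third or the fourth wild type score or the first treated score.

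The H3K4me1 lists held 5 regions at Fcgr3 and none at the other 9 genes, and all 5 had higher means in the KMT2D+/bGeo or treated KMT2D+/bGeo group. Genes with a listed region at an end made up 0.27% (KMT2D+/bGeo against wild type, vehicle), 0.224% (KMT2D+/bGeo, TAK-418 against vehicle) and 0.251% (KMT2D+/bGeo TAK-418 against wild type vehicle) of protein-coding genes. In the same order, 50.4%, 61.1% and 52.1% of listed regions had the higher mean in the KMT2D+/bGeo or treated group, and groups failed to overlap in 3.97%, 6.42% and 8.99%. Wild type TAK-418 against vehicle, where 0.215% of genes were listed, 53.3% of regions were higher on TAK-418 and 13.6% did not overlap, had no listed H3K4me1 region at Fcgr3. In KMT2D+/bGeo TAK-418 against wild type vehicle, the region 171063901 to 171064200 over n-TEctc5 had scores of 26, 11, 25 and 41 against 63, 124, 85 and 68, without overlap. The means were 25.8 ± 12.3 and 85.0 ± 27.7, and limma, the test added after the files were seen, gave a log2 difference of 1.77 (SE 0.42) with an adjusted p of 0.267 over 656 regions (0.137 to 0.490 over its alternatives). At 171064501 to 171066150 the scores were 385, 164, 218 and 214 against 244, 506, 450 and 440, with overlap, and an adjusted p in limma of 0.345. Without the first wild type score the ratios of these regions, 3.30 and 1.67, were 3.31 and 2.06, and without the second treated score 2.80 and 1.54.

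The other H3K4me1 regions overlapped between groups and did not pass either. On TAK-418 against vehicle in KMT2D+/bGeo mice, 171063901 to 171064200 had 30, 80, 93 and 11 on vehicle and 68, 136, 93 and 74 on TAK-418, and 171065801 to 171066150 had 71, 72, 111 and 8 on vehicle and 122, 80, 85 and 110 on TAK-418, both with an adjusted p in limma of 0.441. Their ratios, 1.73 and 1.52, were 1.51 and 1.56 without the first vehicle score and 1.46 and 1.61 without the second TAK-418 score. Between genotypes on vehicle, 171065101 to 171065500 had 82, 50, 71 and 41 in wild type and 99, 89, 196 and 65 in KMT2D+/bGeo mice, with an adjusted p in limma of 0.412. The ratio, 1.84, was 2.08 without the first wild type score and 1.91 without the first KMT2D+/bGeo score. Since the lists hold regions the authors had already selected for a difference, these p-values describe selected regions only. Limma called 0 regions in each H3K4me1 list, with 41, 47, 52 and 102 regions at an unadjusted p under 0.05 for KMT2D+/bGeo against wild type on vehicle, KMT2D+/bGeo TAK-418 against vehicle, wild type TAK-418 against vehicle and KMT2D+/bGeo TAK-418 against wild type vehicle.

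The regions at ends of other genes most alike to those of Fcgr3 and H2-DMa over the 8 libraries of a list were picked out. They are the highest values of a search through lists of 1715 to 2780 regions. So wide a search over 8 libraries yields high values among unrelated regions too, and no chance level was computed. The likeness is Pearson's r of log2(score + 1), given as a description of libraries that share depth and the position that stands apart. In KMT2D+/bGeo TAK-418 against vehicle, the regions nearest in pattern to 171065401 of Fcgr3 were at Mier3 (0.84), Rab10 (0.83) and Vac14 (0.79). In wild type TAK-418 against vehicle, those nearest to 171063901 of Fcgr3 were at Acadl (0.87), Trmt11 (0.83) and Pias3 (0.82). Between genotypes on vehicle, those nearest to 171065601 of Fcgr3 were at Asmt (0.90), Gm51572 (0.89) and Gm7592 (0.88). The H2-DMa region over Brd2, 34120151, was matched in KMT2D+/bGeo TAK-418 against wild type vehicle at 0.99 by the shared promoter of Hnrnpa2b1 and Cbx3, by Gm38664 and by Fbxw4.

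Wider gene lists placed the 10 genes among their pathways. Class I presentation was marked nearly throughout: 14 or 15 of 15 further genes had an H3K4me3 peak at an end in the long lists. The peaks with the highest mean fold in that list were those of Canx, a chaperone of newly made class I chains, at 7.98 ± 1.99 (SD over the 4 long lists), and Pdia3, a disulfide isomerase of the peptide-loading complex, at 6.66 ± 1.95. H2-K1 and H2-D1, the classical class I heavy chains, were marked in all 4, although near-identical class I copies make reads there uncertain. Some neighbours had the same value. Tap1 and Psmb9 both had folds of 5.38 in wild type TAK-418, 4.37 in KMT2D+/bGeo vehicle and 4.52 in wild type vehicle. A count of marked genes is therefore not a count of separate peaks. Class II presentation was marked in 5 of 15 genes in each long list. Those were H2-Ab1, Ifi30 (5.19 ± 1.77), Lgmn, Rfxank and Rfxap (7.04 ± 1.26), of which Rfxap and Rfxank belong to the factor that drives class II promoters and Ifi30 and Lgmn are lysosomal enzymes. H2-Aa, H2-Eb1, Cd74 and Ciita had no peak in any long list.

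Of 21 further microglial genes, 5 to 7 were marked. Tgfbr1 (5.50 ± 1.39), a TGF-β receptor, Sall1 and Irf8, transcription factors of microglia, and Mertk, a receptor for dying cells, were marked in all 4 long lists, and 13 genes, among them P2ry13, Siglech, Itgam and Ptprc, in none. Complement genes and Fc receptors were marked in 2 or 3 of 14, with Plcg2 (5.95 ± 1.92) and Syk (4.95 ± 1.53), a phospholipase and a kinase downstream of these receptors, in all 4 long lists. Fcgr1, Fcgr2b, Fcgr4, Fcer1g, Tyrobp, C1qb and C3 were in none. Innate sensing genes were marked in 9 or 10 of 18, led by Nfkb1 (7.86 ± 2.03) and Rela (6.91 ± 2.31), subunits of NF-κB, while Tlr4, Tlr7, Il1b, Tnf and Il6 were unmarked.

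Lists for other cells of the tissue were read the same way. Excitatory neuron genes were marked in 12 to 14 of 15, astrocyte genes in 7 to 11 of 14, oligodendrocyte lineage genes in 5 to 9 of 12 and vascular genes in 2 to 4 of 10. For other myeloid and blood cells the count was 1 of 15 in each long list, that gene being Cd4, and Mrc1, Ccr2, S100a8, Cd3e and Hbb-bs were unmarked. These counts describe 4 libraries, in which all protein-coding genes together were marked at 55.1% to 60.1%.

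**Figure D4:**
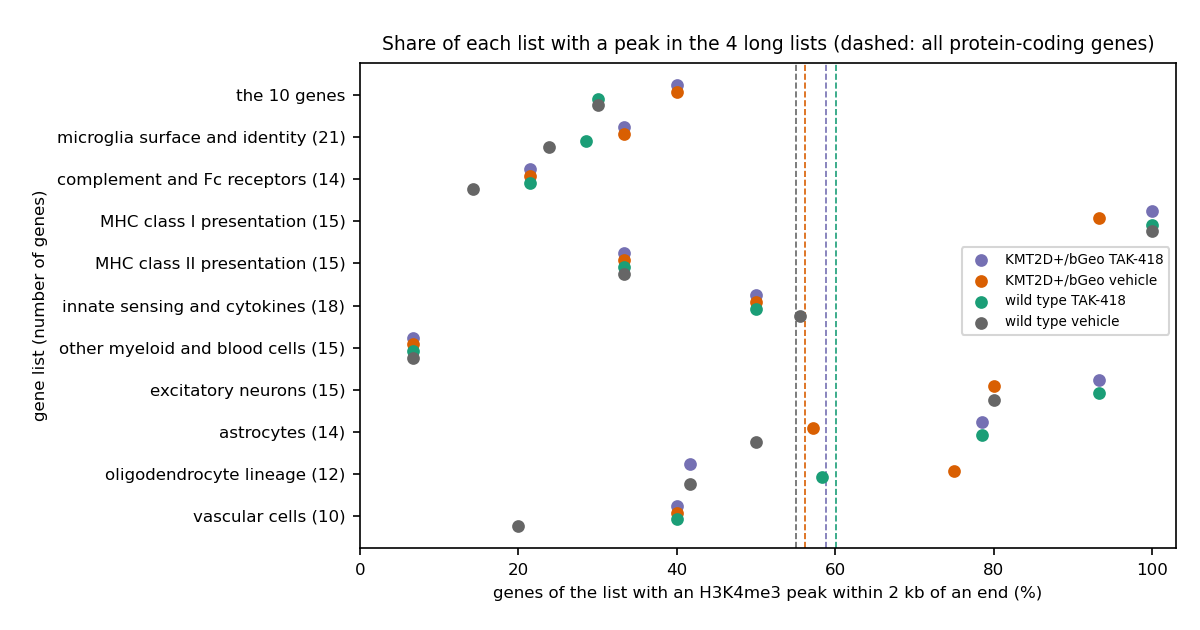
The share of genes in each list with an H3K4me3 peak within 2 kb of an end (x axis, %) is plotted for the 4 long lists, 1 dot per library, with dashed lines at the share of all protein-coding genes. The 10 genes (30% to 40%), the microglia list (23.8% to 33.3%) and complement and Fc receptors (14.3% to 21.4%) lie to the left of the lines, and class I presentation (93.3% to 100%) to the right.

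Few genes of the wider immune lists had regions in the differential lists, and each such region overlapped between groups. Between genotypes on vehicle, Erap1 (ratio 0.678), an aminopeptidase that trims class I peptides, Pdia3 (0.582) and Rela (0.346) had lower means in KMT2D+/bGeo mice. The Rela scores were 26, 60, 166 and 69 in wild type and 21, 40, 20 and 30 in KMT2D+/bGeo mice. In KMT2D+/bGeo TAK-418 against vehicle, C3, the central complement protein, had a ratio of 2.06 for H3K4me3 and 1.39 for H3K4me1 at one place, Pdia3 had 1.49 and Rfxap 0.595. The H3K4me3 scores at C3 were 105, 5, 41 and 34 on vehicle and 127, 165, 18 and 71 on TAK-418. In wild type TAK-418 against vehicle, Plcg2 had 1.56, Tapbp, a class I chaperone, 1.50, Nfkb1 1.73 and Erap1 0.667. In KMT2D+/bGeo TAK-418 against wild type vehicle, C3 had 1.73, Tgfbr1 0.738, Tapbp 0.543, Calr, a class I chaperone, 0.618 and Rela 0.368.

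Astrocyte genes were also listed. Glul (ratio 0.643) and Atp1b2 (0.600) were listed between genotypes on vehicle, where the median of the list was 0.642. Glul had 0.693 in KMT2D+/bGeo TAK-418 against vehicle, Slc1a2 (0.720), Atp1b2 (0.740) and Fgfr3 (1.40) were listed in wild type TAK-418 against vehicle, and Slc1a2 (0.426), Glul (0.566) and Atp1b2 (0.747) in KMT2D+/bGeo TAK-418 against wild type vehicle. Of the 21 further microglial genes only Tgfbr1 was listed, in 1 of the 4 H3K4me3 comparisons, and the lists for other myeloid and blood cells, excitatory neurons, oligodendrocytes and vessels gave 0 genes in all 4. Of all protein-coding genes, 7.21% (genotypes on vehicle), 4.2% (KMT2D+/bGeo, TAK-418 against vehicle), 9.98% (wild type, TAK-418 against vehicle) and 9.73% (KMT2D+/bGeo TAK-418 against wild type vehicle) had a listed H3K4me3 region. With such shares, few or 0 genes are usual in lists this short, and differences between the immune and cell type lists were not tested. The part of cell composition in the Fcgr3 and H2-DMa scores was not tested.

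The peaks of all promoters sorted with the CG content of the printed windows. Of windows with fewer than 5 CG dinucleotides, 9.04% to 11.7% had a peak within 2 kb of the start in the long lists. The share was 60.2% to 68.5% with 5 to 14 and 93.7% to 97.2% with 15 or more. The windows of Cx3cr1, P2ry12, Aif1, Trem2 and Fcgr3 all fell in the lowest class, B2m in the middle one and the first H2-DMa window in the highest. With members chosen on their peaks, this is a description.

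**Figure D5:**
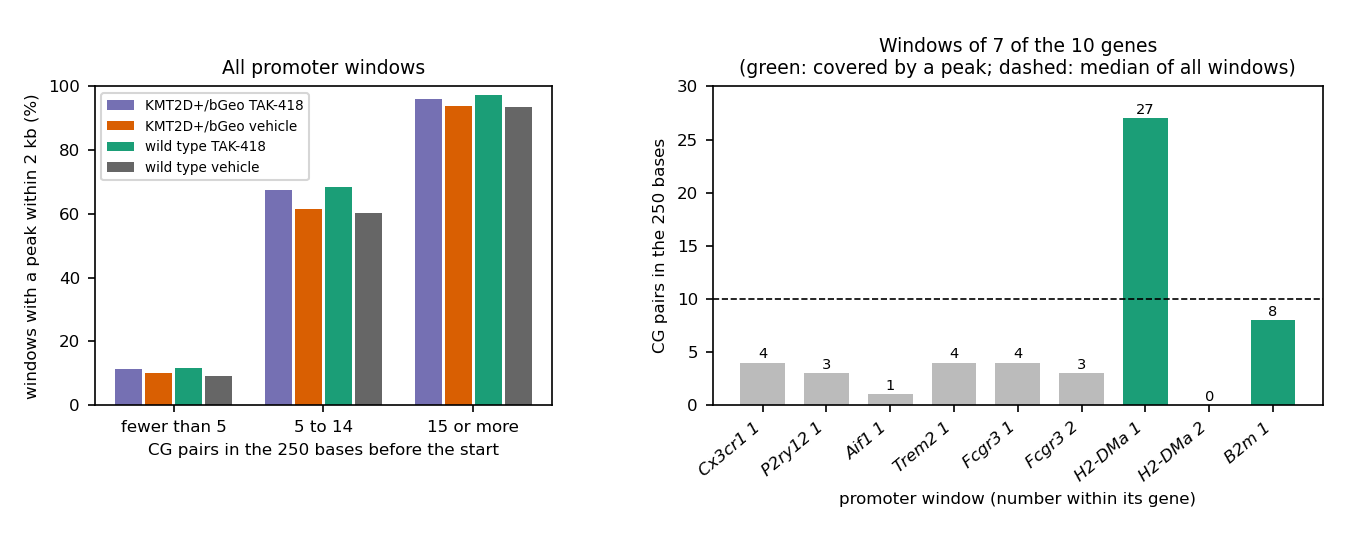
Left, the share of all RefSeq promoter windows with an H3K4me3 peak within 2 kb of the start (y axis, %), by the number of CG dinucleotides in the 250 bases before it, with 1 bar per long list. Right, the CG count of each window of 7 of the 10 genes: the green windows, H2-DMa with 27 and B2m with 8, are those a peak covered, and the grey ones hold 0 to 4.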

How the data were processed

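The series held 31 libraries of chromatin immunoprecipitation from the hippocampi of 16 mice. The authors deposited 1 broad-peak list per library, giving each peak a fold enrichment, which is a ratio, and its −log10 p-value and q-value. They also deposited 4 differential lists per mark, with 1 whole-number score per library and a −log10 p of at least 1.3. The submitters' processing notes name MACS2, MACS, bedtools and mm10. The aligner, control, peak thresholds, the maker and normalization of the differential lists, and the treatment of reads that map to several places are not given in the sources used here. Lists whose names give no mark were taken as H3K4me1, since the wild type TAK-418 cells held 3 scores. Scores at regions shared between the deposited H3K4me3 lists differed by median factors of 0.829 to 1.21. The lists give no read totals, so depth is unknown, and the replicates are separate mice.

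A gene was marked when a peak lay within 2 kb of either end in the RefSeq annotation. Members and lists were chosen with earlier results of these data known, and the motifs and CG classes after the sequences had been seen. H3K4me1 peaks at the 10 genes were compared by two-sided exact permutation tests. limma 3.58.1 in R 4.3.3 was fitted to log2(score + 1) over each whole list and tested on simulated data, and its use on H3K4me1 was added after the files were seen. Python 3.11.15, pandas 2.3.3, scipy 1.17.1 and matplotlib 3.10.9 did the rest. The text names all 10 genes, genes of the wider lists with a listed region or among the 2 highest mean folds of their list, and the 3 genes most alike in pattern to the member region that ranked first in each H3K4me3 list. Some results that this rule covers are not reported here. Further genes of the wider lists are named as examples and were chosen after their values were seen. Alternatives were other distances, peak filters, pseudocounts and score filters, other averages, and leaving out each library or score.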

Additional observations from a re-analysis of the deposited data

Results flagged for a closer look

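In groups of 4 libraries, 42 sets of values at the 10 genes were examined for a sample far from the other 3, by Dixon's ratio with a 95% critical value of 0.829. Chance alone flags about 1 group in 20, and 4 were flagged here. All 4 were sets of H3K4me3 values, which the choice of the genes had used. The flags are therefore a description and not a test. The fold enrichment of the H3K4me3 peak at Fcgr3 was 12.9 in wild type TAK-418 library 3 and 10.8 in KMT2D+/bGeo TAK-418 library 3, each far above the other libraries of its group (ratios 0.974 and 0.948). Both are the long-list libraries of their groups. At H2-DMa, the third wild type vehicle score, 295, stood apart at 34118351 in the comparison with KMT2D+/bGeo TAK-418 (ratio 0.854). The third wild type TAK-418 score, 274, stood apart at 34120151 in the comparison with wild type vehicle (ratio 0.847).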

How the results depend on the processing

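The number of the 10 genes with an H3K4me3 peak at an end in any library, 5, was 4 within 1 kb and 7 within 5 kb of an end, 3 with a −log10 q of at least 5, 3 with peaks of at least 500 bp, 2 counting only peaks at an annotated start (7 genes have one), and 2 without the long lists. Leaving out 1 library at a time gave 4 to 5. The H3K4me1 count, 1, was 0 with a −log10 q of at least 5. Regions passing limma in KMT2D+/bGeo TAK-418 against wild type vehicle, 8, were 0 with a pseudocount of 8, 0 on autosomes and X alone (added after seeing the data) and 0 to 11 leaving out 1 score, and the 7 found without the third treated score were all lower. Leaving out 1 score gave 0 to 1 in KMT2D+/bGeo TAK-418 against vehicle, 0 to 3 in wild type TAK-418 against vehicle, and 0 to 1 for H3K4me1 in that last comparison. Of 120 alternatives for the H3K4me3 ratios, 118 kept their direction within 1 SD of the ratio. That SD combines the spread of both groups and is a loose limit. At H2-DMa from 34118351 in KMT2D+/bGeo TAK-418 against wild type vehicle it was 1.56, for a ratio of 1.30. Staying within it therefore says little about stability. In KMT2D+/bGeo TAK-418 against wild type vehicle, H2-DMa from 34118351 turned from 1.30 to 0.910 without the third treated score and rose to 2.59 without the third vehicle score. In wild type TAK-418 against vehicle, H2-DMa from 34120151 turned from 0.739 to 1.25 without the third vehicle score and was 0.517 without the third treated score. The cause was not tested. All 50 alternatives for the H3K4me1 ratios at Fcgr3 kept their direction. For the difference in genes with an H3K4me1 peak, leaving out 1 library gave 0.417 to 0.75 (KMT2D+/bGeo against wild type, vehicle), 0 to 0.333 (KMT2D+/bGeo, TAK-418 against vehicle), -0.333 to 0 (wild type) and 0.667 to 1 (KMT2D+/bGeo TAK-418 against wild type vehicle). No paired analysis was possible because the labels give the groups no shared replicate numbers.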
